A study of Mus musculus with 13 samples.

Results

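The genes described here are 37 genes of antigen presentation through the major histocompatibility complex (MHC), classes I and II, chosen by symbol from the 21100 genes of a count table of mouse basal cell carcinoma (BCC). They comprise 11 class I heavy chains, the class I light chain B2m, 5 immunoproteasome and proteasome activator subunits, 8 genes of peptide transport, trimming and loading, the class I transactivator Nlrc5, 5 class II genes, 4 class II regulators, the lipid-presenting Cd1d1 and the endosomal reductase Ifi30. Poly(A) RNA of 13 tumors was sequenced, 1 library per tumor. The 9 GEM-BCC tumors grew in the skin of 7 Ptch1+/- K14-CreERT2 p53fl/fl mice (K14-CreER2 in the sample labels) after 3 injections of 300 µg tamoxifen and 4 Gy of X-ray. K14 drives the Cre in basal keratinocytes, so p53 is lost in those cells and their descendants. A single mouse bore GEM2 and GEM3, and another bore GEM7 and GEM8. Each of the 4 Tp-BCC tumors grew under the skin of its own mouse, labelled Ptch1+/-p53fl/fl, inoculated with 2000000 BCC cells, and all 4 descend from a single GEM-BCC tumor. All mice were female and all carried the Ptch1+/- and p53fl/fl alleles. The comparison asks how closely the transplanted tumors keep the expression of the model they came from.

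Class I molecules consist of a heavy chain and B2m and carry peptides that the proteasome cuts in the cytosol, that TAP pumps into the endoplasmic reticulum and that tapasin and its partners load. Nearly all nucleated cells make them, and the transactivator NLRC5 and interferon-γ raise their transcription. Class II molecules carry peptides from endosomes and are made mainly by dendritic cells, macrophages and B cells under the transactivator CIITA. Keratinocytes make little class II unless interferon-γ induces it, and loss of class I is a known way for skin tumors to escape CD8+ T cells.

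Sequencing depth was 28075317 to 32629102 total counts per GEM-BCC tumor and 15388027 to 17494912 per Tp-BCC tumor. Levels are given as CPM, the counts of a gene per 1000000 counts of the library after TMM scaling, and folds as log2 of Tp-BCC over GEM-BCC with the standard error (SE) from edgeR's quasi-likelihood test. A gene passed at a Benjamini-Hochberg adjusted p under 0.05 over the 14390 tested genes. All GEM-BCC libraries are labelled batch 1 and all Tp-BCC libraries batch 2, so model and batch cannot be told apart. The p-values reflect the spread between tumors, of which the 4 Tp-BCC tumors share 1 origin. GEM2 and GEM3, and GEM7 and GEM8, each share a mouse, yet the main tests treat them as independent. The libraries of TP2 and TP4 stand apart from those of TP1 and TP3. Across genes, log2 CPM relative to the mean of the tumors rose with the GC content of the transcript in TP2 and TP4 (Spearman rho 0.594 and 0.591) and in GEM1 (0.365), and fell with it in TP1 and TP3 (−0.389 and −0.473) and in the other 8 GEM-BCC tumors (−0.312 to −0.15). In bulk tumors, fewer cells of a type and less RNA per cell cannot be told apart. The summed CPM of 5 basal keratinocyte and BCC markers (Krt5, Krt14, Krt17, Trp63 and Gli1) was 11641 to 17224 in the GEM-BCC model and 8258 to 20675 in the Tp-BCC model. None of the 5 passed the test, against 19.4% of all tested genes. At an unadjusted p under 0.05 were 2 of the 5, and 4964 of all 14390 tested genes.

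Most antigen presentation genes did not differ past the test between the transplanted tumors and the GEM-BCC tumors. Over the 11 class I heavy chains and B2m, 4 of 12 passed (33.3%, against 19.4% of all tested genes), all of them heavy chains. Among the 4 is H2-K1, whose call is set aside below. H2-D1, the best-expressed class I heavy chain, its partner B2m, and the class II genes did not pass. H2-Q6, H2-Q7 and H2-T23, nonclassical class I heavy chains, and Tapbpl, a tapasin-related peptide editor, were lower in Tp-BCC. Calr, the chaperone calreticulin, was higher, and H2-K1 was counted almost only in Tp-BCC. In all, 37 of 37 genes were tested and 6 passed (16.2%), against 19.4% of all tested genes. Of these, 2 were higher, against 11.1% of all genes, and 4 were lower, against 8.35%. An absolute log2 fold change above 2 as well, the threshold of the study, left 3 genes, H2-K1, H2-Q6 and H2-Q7, against 5.57% of all genes. The study applied that threshold to DESeq2 fold changes after shrinkage, and the edgeR folds used here were not shrunk. The paper reports that MHC class I genes did not differ significantly between the models. Which class I genes that statement covers is not given there. The values of the 2 models did not overlap for 1 gene, H2-K1, against 9.95% of all genes. The median log2 fold change was −0.25 over the 37 genes and −0.03 over all tested genes. H2-K1 reached the minimum of 10 counts only in the 4 Tp-BCC tumors, so it entered the test through the group in which it is high and its call supports nothing. The other 36 genes had at least 10 counts in at least 10 tumors, and 5 of these 36 passed.

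**Figure D1:**
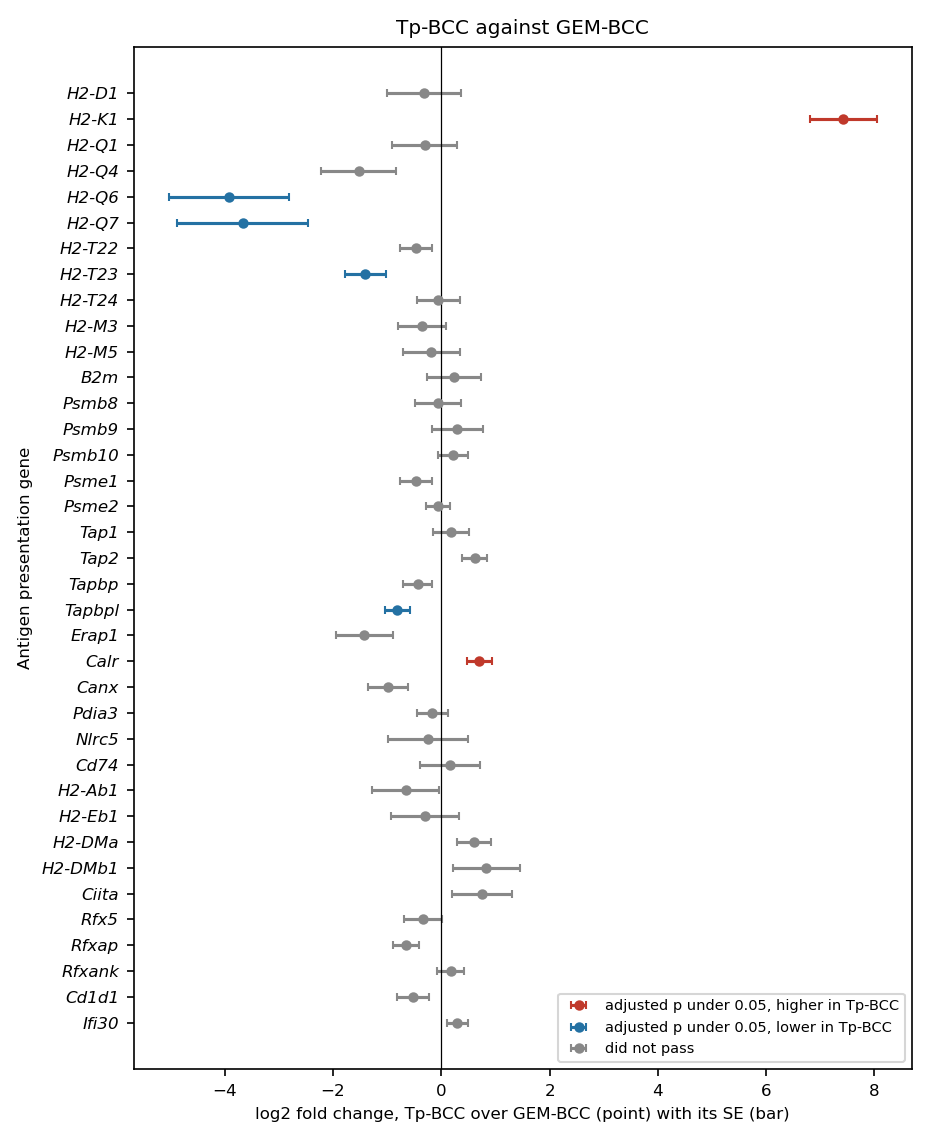
Log2 fold change of each antigen presentation gene, Tp-BCC over GEM-BCC (horizontal axis, point), with its SE (bar) from edgeR, in 9 GEM-BCC and 4 Tp-BCC tumors. H2-K1 lies far to the right at 7.42, H2-Q6 (−3.92) and H2-Q7 (−3.67) lie to the left, and most other genes lie within 1 of zero.

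The number that passed depended on the tumors and on the GC trend. DESeq2 in place of edgeR gave 10 genes (26% of all tested genes), and removing the GC trend of each tumor also gave 10 (28.4%). The genes that DESeq2 added were H2-Q4, Erap1, Canx and Rfxap, all lower in Tp-BCC. Counts summed per mouse gave 5 genes (18.1% of all genes), without Calr. Leaving out 1 GEM-BCC tumor gave 4 to 6 genes (15.6% to 21.1% of all genes). Of the 36 genes then tested, 2 passed without TP1 (16.6% of all genes), 3 without TP2 (10.8%), 5 without TP3 (20.5%) and 3 without TP4 (12.8%). Without TP2 and TP4 it was 3 of 36 (10.4% of all genes), and without TP1 and TP3 it was 8 of 36 (42.9%), alternatives added after the data were seen. H2-T23 passed in 3 of the 4 fits that left out a Tp-BCC tumor, more often than any other of the 37 genes.

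**Figure D2:**
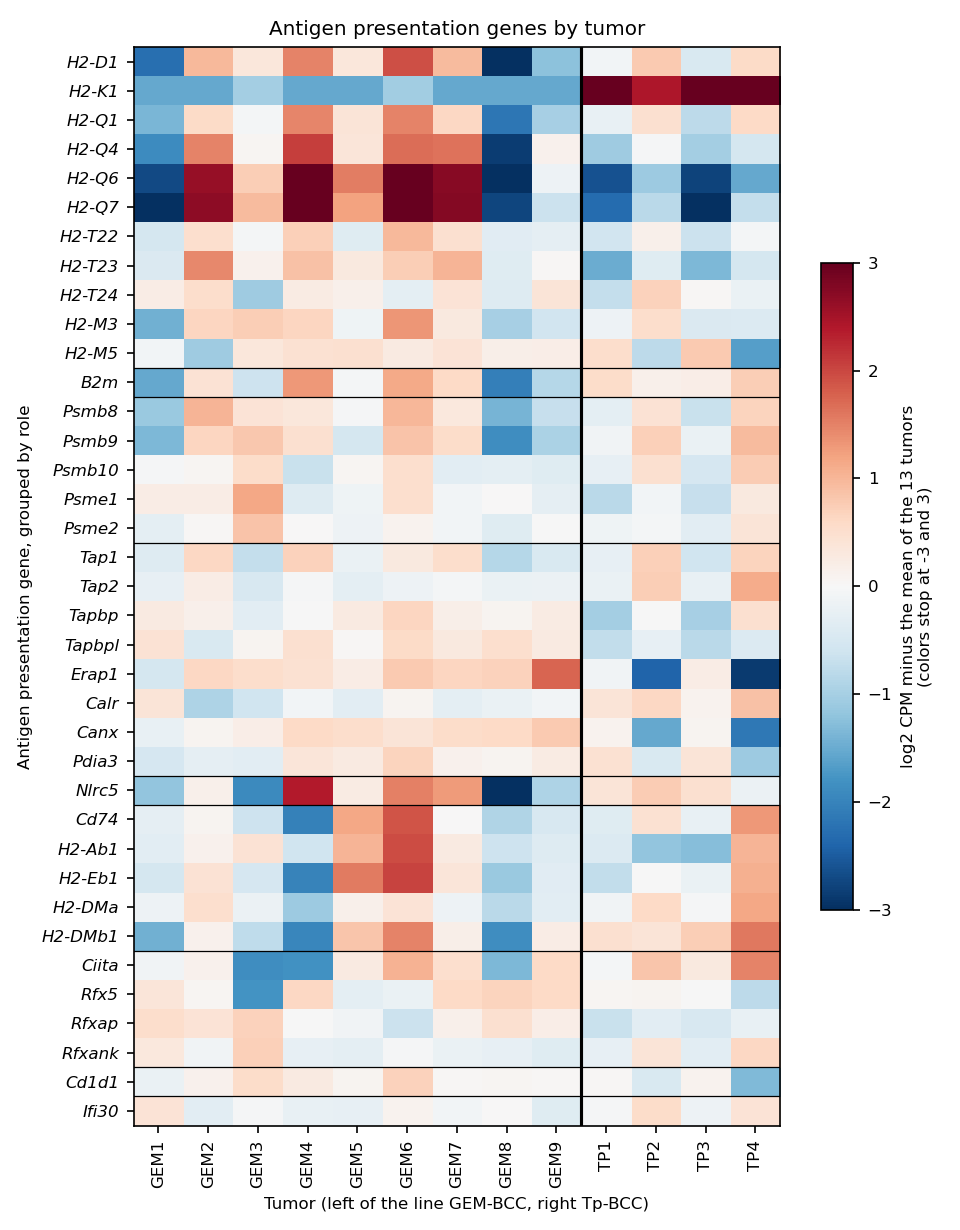
Heat map of the 37 genes (vertical axis, grouped by role) in the 13 tumors (horizontal axis), colored by log2 CPM minus the mean of the 13 tumors, with colors stopped at −3 and 3. Among GEM-BCC tumors H2-D1, H2-Q1, H2-Q4, H2-Q6, H2-Q7 and B2m are bluest in GEM1 and GEM8 and reddest in GEM4 and GEM6, while the Tp-BCC columns differ less among themselves for H2-D1, B2m and Nlrc5.

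The promoters of 6 class I heavy chains and of B2m are shown because these genes differed between models or between GEM-BCC tumors. H2-Q6, H2-Q7 and H2-T23 passed as lower in Tp-BCC. H2-K1 was counted almost only in Tp-BCC, with a call that supports nothing. H2-D1, H2-Q4 and B2m varied widely between GEM-BCC tumors. Each stretch holds the 150 bases before the gene's start in RefSeq, build GRCm38.p6, 5′ to 3′ on the gene's strand. The heavy chains lie in the MHC on chromosome 17 and B2m on chromosome 2. Capitals mark TGACG, the core of the X2 box, CCAAT, the Y box, and GAAANNGAAA, an interferon-stimulated response element, each on either strand.
H2-D1, chr17:35262944-35263093, plus strand: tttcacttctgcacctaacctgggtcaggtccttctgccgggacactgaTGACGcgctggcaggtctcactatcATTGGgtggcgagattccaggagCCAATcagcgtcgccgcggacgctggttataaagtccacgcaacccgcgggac
H2-K1, chr17:34000348-34000497, minus strand: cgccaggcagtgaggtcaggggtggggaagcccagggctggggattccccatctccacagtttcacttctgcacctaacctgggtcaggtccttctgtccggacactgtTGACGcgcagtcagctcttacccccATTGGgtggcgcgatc
H2-Q4, chr17:35379467-35379616, plus strand: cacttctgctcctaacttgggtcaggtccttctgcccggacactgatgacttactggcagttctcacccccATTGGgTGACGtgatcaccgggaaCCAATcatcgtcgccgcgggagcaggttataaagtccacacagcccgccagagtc
H2-Q6, chr17:35424700-35424849, plus strand: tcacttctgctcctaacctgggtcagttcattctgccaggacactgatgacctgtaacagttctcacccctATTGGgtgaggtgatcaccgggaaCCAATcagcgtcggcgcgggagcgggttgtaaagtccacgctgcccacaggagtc
H2-Q7, chr17:35439005-35439154, plus strand: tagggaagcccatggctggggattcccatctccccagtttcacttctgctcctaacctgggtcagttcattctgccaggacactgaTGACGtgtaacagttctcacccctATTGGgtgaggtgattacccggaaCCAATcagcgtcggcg
H2-T23, chr17:36032702-36032851, minus strand: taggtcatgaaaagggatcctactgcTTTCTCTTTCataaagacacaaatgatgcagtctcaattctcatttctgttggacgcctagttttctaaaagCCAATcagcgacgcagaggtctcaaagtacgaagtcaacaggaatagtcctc
B2m, chr2:122147537-122147686, plus strand: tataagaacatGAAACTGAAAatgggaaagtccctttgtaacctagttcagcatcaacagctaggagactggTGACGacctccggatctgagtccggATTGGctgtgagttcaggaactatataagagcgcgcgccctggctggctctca

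X2 and Y boxes belong to the enhancer through which NLRC5 and CIITA act on class I and class II promoters. Promoters of 300 bases, from 250 before to 50 after the start, were at hand for 27 of the 37 genes and for 27025 genes in all. TGACG occurred in 13 of the 27 (48.1%) and in 21% of all promoters. CCAAT occurred in 19 of the 27 (70.4%) and in 37.9% of all. GAAANNGAAA occurred in 5 of the 27 (18.5%) and in 3.49% of all. TGACG followed by CCAAT on the opposite strand, with starts 15 to 30 bases apart, a spacing chosen after the positions had been seen, occurred in 5 of the 27 (18.5%) and in 0.344% of all. H2-D1, H2-K1 and B2m hold that pair 25 bases apart and H2-Q7 24 bases apart. In the stretch of H2-Q6 neither TGACG nor the pair was found, and H2-T23 holds GAAANNGAAA on the opposite strand 124 bases before its start. Each set of letters was searched alone, overlaps were allowed, and a match is a stretch of letters and not a shown site.

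H2-D1 is the classical class I heavy chain that presents peptides to CD8+ T cells. Its level was 245, 447, 188 and 387 CPM in TP1 to TP4. In GEM-BCC tumors it ran from 25.0 CPM in GEM8 to 982 CPM in GEM6, with a median of 329 CPM. The Tp-BCC tumors lay inside the GEM-BCC range, and GEM1, GEM8 and GEM9 lay below all of them. The log2 fold change was −0.32 (SE 0.69, adjusted p = 0.773). Per kb of the longest transcript (GENCODE vM21), the median level was 156 CPM in GEM-BCC and 150 CPM in Tp-BCC tumors, the highest of the heavy chains. B2m, the light chain that every class I heavy chain needs, had 358, 272, 280 and 406 CPM in TP1 to TP4. Its GEM-BCC levels ran from 58.6 CPM in GEM8 to 601 CPM in GEM4, with a median of 236 CPM. The models overlapped fully, with the Tp-BCC tumors close together and the GEM-BCC tumors on either side of them (log2 fold change 0.23, SE 0.50, adjusted p = 0.768).

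H2-K1, the other classical heavy chain of the mouse, was almost uncounted in GEM-BCC tumors. It had 34, 17, 39 and 37 counts in TP1 to TP4, or 2.00, 1.09, 2.33 and 2.64 CPM. In GEM-BCC it had 0 counts in 7 tumors and 1 count in each of GEM3 and GEM6. All Tp-BCC tumors lay above all GEM-BCC tumors, yet at a low level. With 3 counts per library in place of the GEM-BCC counts, the H2-K1 level in Tp-BCC was at least 20.99-fold higher, a bound given with no test. The fitted log2 fold change of 7.42 depends on the prior count. Per kb, its Tp-BCC median of 1.34 CPM compares with 150 CPM for H2-D1. The transcript shares none of its 100-base words with another gene in GENCODE vM21. The MHC haplotype of the mice is not given in the sources used here, and the paper reports a mixed background of undetermined histocompatibility. Whether reads of the allele present align to this reference transcript was therefore not tested. The same question was not tested for the other H2 genes, so their levels, folds and spreads between mice carry this limit.

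H2-Q6 and H2-Q7, nonclassical heavy chains of the Qa-2 region, had the most negative log2 fold changes of the 37 genes. H2-Q6 had 2.35, 6.94, 2.10 and 5.07 CPM in TP1 to TP4. Its GEM-BCC levels ran from 1.53 CPM in GEM8 to 144 CPM in GEM6, with a median of 43.7 CPM. GEM1 lay among the Tp-BCC tumors, GEM8 lay below them and the other 7 GEM-BCC tumors lay above them. H2-Q6 fell by 3.92 on the log2 scale (SE 1.11, adjusted p = 0.0225). H2-Q7 had 0.589, 1.80, 0.180 and 1.93 CPM in TP1 to TP4, against 0.263 CPM in GEM1 to 40.3 CPM in GEM6 (median 7.51 CPM). Again GEM1 and GEM8 overlapped with Tp-BCC and the other 7 lay above. H2-Q7 fell by 3.67 (SE 1.21, adjusted p = 0.0448). H2-Q4 and H2-Q1 did not pass, with log2 fold changes of −1.53 (adjusted p = 0.135) and −0.30 (adjusted p = 0.75). With DESeq2 in place of edgeR, H2-Q4 passed as lower (−1.55, adjusted p = 0.0467).

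The H2-Q calls rest on few tumors and on how reads were divided. H2-Q6 did not pass without TP1 (adjusted p = 0.0598), TP3 (0.0512) or TP4 (0.0564), nor without TP1 and TP3 (0.10022) or TP2 and TP4 (0.095). H2-Q7 did not pass without GEM2, GEM4, GEM5, GEM6 or GEM7 (adjusted p = 0.0531 to 0.0673) or without any of the 4 Tp-BCC tumors (0.0786 to 0.0974). The longest transcript of H2-Q7 shares 16.4% of its 100-base words with other genes, 11.7% with H2-Q6, so their counts are uncertain separately. With the H2-Q rows summed, the log2 fold change was −2.22 (SE 0.82) and the adjusted p 0.0695.

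H2-T23 encodes Qa-1, a nonclassical heavy chain recognized by NKG2A on NK and T cells. Its level was 13.1, 29.0, 14.5 and 25.7 CPM in TP1 to TP4. GEM-BCC tumors had 27.6 CPM in GEM1 to 102 CPM in GEM2, with a median of 45.8 CPM. TP2 lay just above GEM1 and level with GEM8, and the remaining Tp-BCC tumors lay below every GEM-BCC tumor. H2-T23 fell by 1.40 (SE 0.37, adjusted p = 0.0167), and did not pass without TP1 (adjusted p = 0.0517) or without both TP1 and TP3 (0.0914). It shares 7.28% of its words with other genes, and with the H2-T rows summed the log2 fold change was −0.77 (adjusted p = 0.0927). H2-T22, which γδ T cells can recognize, H2-T24, H2-M3, which presents formylated peptides, and H2-M5 had log2 fold changes of −0.47 to −0.06 and did not pass. Of these, H2-T22 had the highest level per kb, 36.1 CPM in GEM-BCC and 30.5 CPM in Tp-BCC tumors (medians).

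Class I levels varied widely between GEM-BCC tumors. Over the 11 heavy chains and B2m, the median SD of log2 CPM was 1.04 among the 9 GEM-BCC tumors and 0.576 among the 4 Tp-BCC tumors. Over all tested genes the order was the other way, with 0.435 and 0.575. The SD was larger in GEM-BCC for 9 of the 12 (75%), for 21 of the 37 genes (56.8%) and for 37.2% of all tested genes. No test was run on these spreads. From the lowest to the highest GEM-BCC tumor, H2-Q7 spanned 153-fold, H2-Q6 93.9-fold, Nlrc5 43.3-fold, H2-D1 39.2-fold, H2-Q4 30.5-fold and B2m 10.3-fold. Among Tp-BCC tumors the same genes spanned 1.49-fold (B2m) to 10.7-fold (H2-Q7). Both lowest H2-D1 tumors, GEM1 and GEM8, were also the lowest GEM-BCC tumors in H2-Q1, H2-Q4, H2-Q6, H2-Q7, H2-M3, B2m, Psmb8 and Psmb9.

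**Figure D3:**
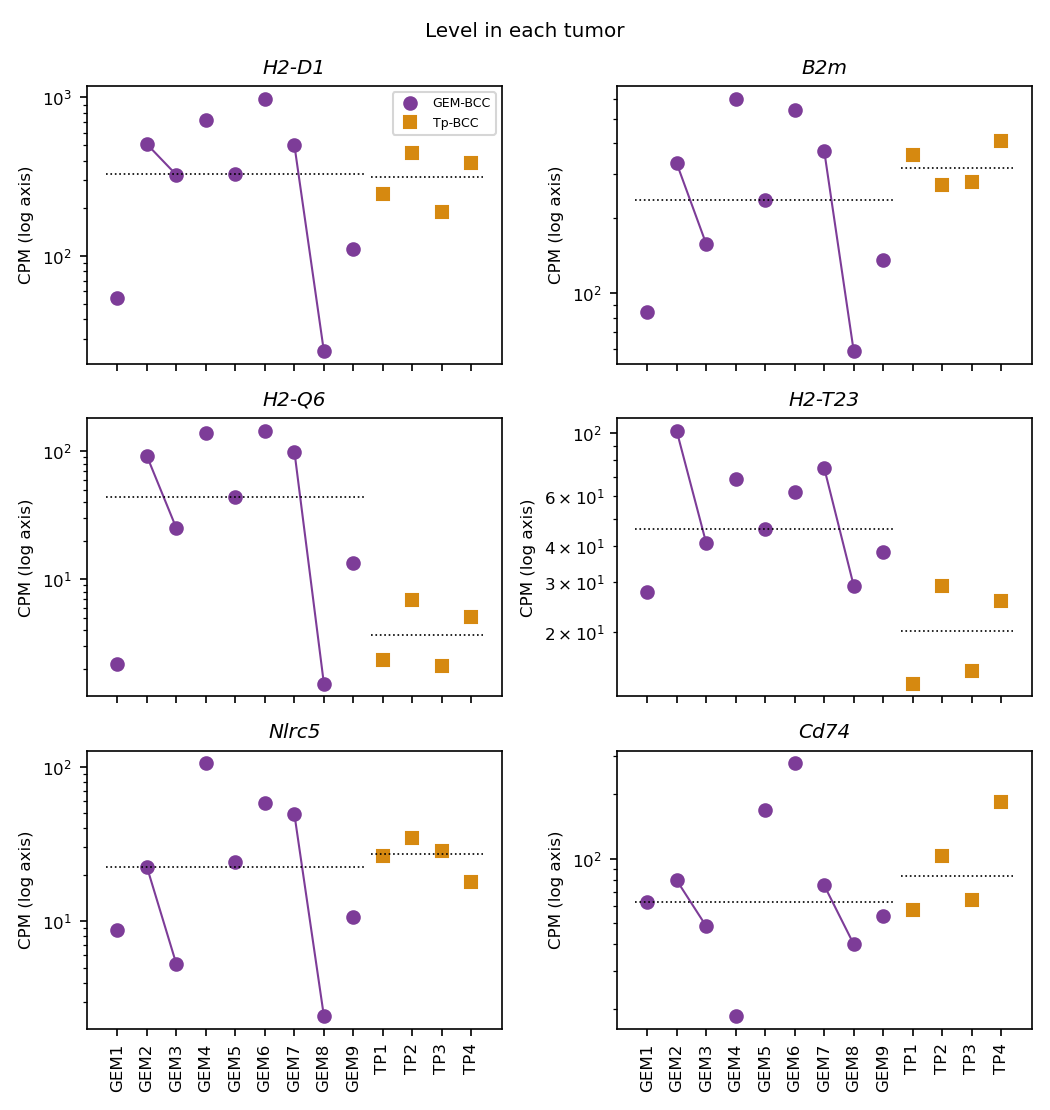
Level of 6 genes in each tumor (CPM, log axis), with circles for GEM-BCC, squares for Tp-BCC, solid lines joining tumors of the same mouse and dotted lines at the median of each model. GEM8 is the lowest tumor for H2-D1 (25.0 CPM), B2m (58.6 CPM), H2-Q6 (1.53 CPM) and Nlrc5 (2.43 CPM), and GEM7 from the same mouse is 6.33-fold to 64.9-fold above it for these genes.

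The pair GEM7 and GEM8, from 1 mouse and 1 batch and with similar totals of 29612254 and 31635225 counts, showed this within an animal. H2-D1 was 19.9-fold higher in GEM7 (499 against 25.0 CPM), H2-Q6 64.9-fold, H2-Q7 53.8-fold, H2-Q4 22.2-fold and B2m 6.33-fold. Nlrc5 was 20.2-fold, Psmb9 5.39-fold, Psmb8 3.28-fold and Tap1 2.59-fold higher. Class II genes differed too. H2-DMb1 was 4.98-fold, Ciita 4.05-fold and H2-Eb1 2.82-fold higher in GEM7, and H2-Ab1, Cd74 and H2-DMa 1.575-fold to 1.95-fold. Meanwhile Tapbp, Erap1, Calr, Canx, Pdia3, Psmb10, Psme1 and Tap2 differed by 1.11-fold or less in either direction. Of the 37 genes, 15 were more than 1 log2 unit higher in GEM7 and 0 were lower by that much (40.5%), against 14.8% of all tested genes in either direction. For heavy chains and B2m it was 8 of 12 (66.7%). In GEM2 and GEM3, the other pair from 1 mouse, 10 of the 37 genes were higher by that much in GEM2 and 1 was lower (29.7%, against 21.8% of all genes), with Nlrc5 4.26-fold and H2-Q6 3.66-fold higher in GEM2. These are differences between single libraries, with no replicate check.

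**Figure D4:**
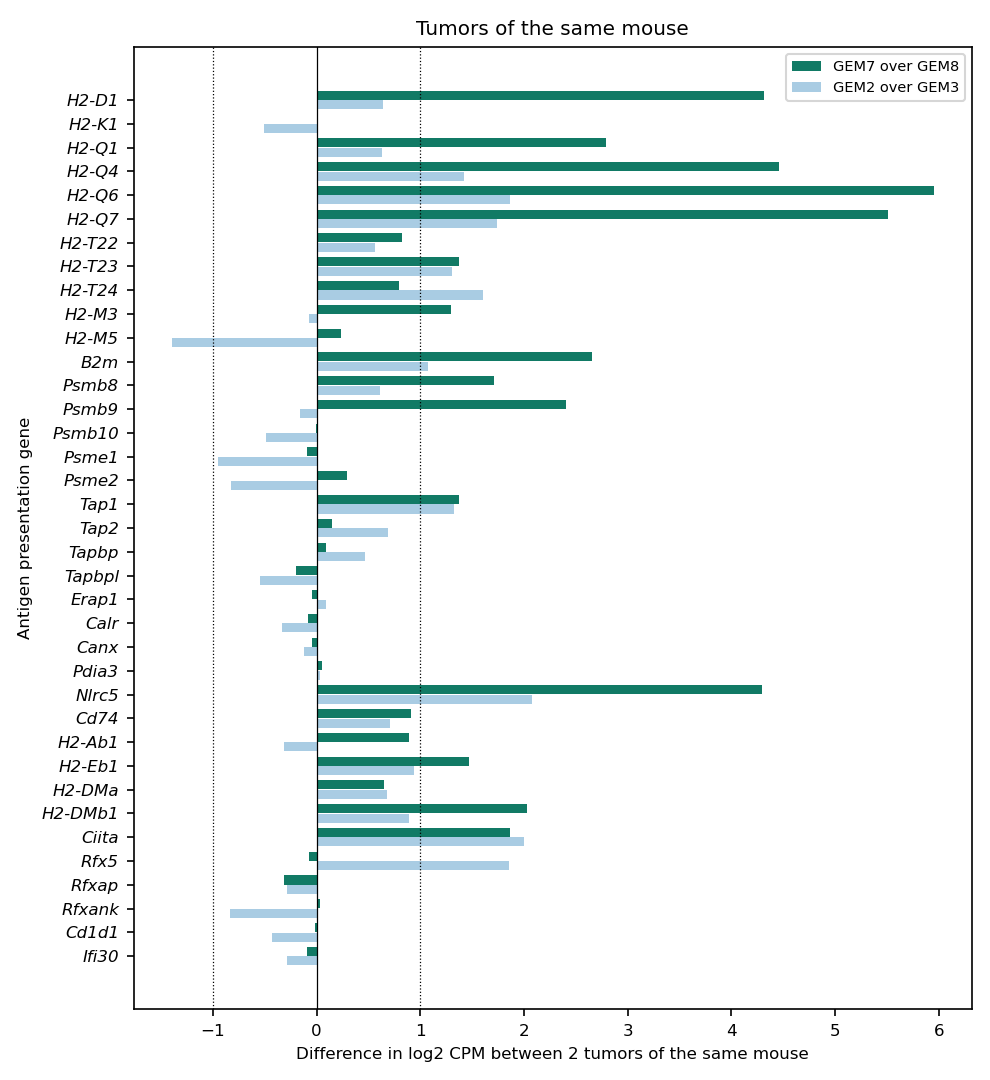
Difference in log2 CPM between tumors of the same mouse for each gene (horizontal axis), dark bars for GEM7 over GEM8 and light bars for GEM2 over GEM3, with dotted lines at −1 and 1. Long dark bars to the right belong to the heavy chains H2-D1 and H2-Q1 to H2-Q7, B2m, Psmb8, Psmb9, Nlrc5, H2-DMb1 and Ciita. The chaperones Calr, Canx and Pdia3 have bars near zero.

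Nlrc5, the transactivator of class I genes, had 26.4, 34.5, 28.3 and 17.9 CPM in TP1 to TP4. In GEM-BCC it ran from 2.43 CPM in GEM8 to 105 CPM in GEM4, with a median of 22.5 CPM. The Tp-BCC tumors fell in the middle of that range (log2 fold change −0.25, SE 0.73, adjusted p = 0.84). Across the 7 GEM-BCC mice, with the mean log2 CPM of the tumors of a mouse, Nlrc5 and B2m had a Pearson r of 0.932 (exact permutation p = 0.000595, adjusted p = 0.0208 over 35 relations computed) and a Spearman rho of 0.964 (exact p = 0.00278, adjusted p = 0.0972). Without the 2 mice farthest from the median of Nlrc5, r was 0.704 over 5 mice. H2-Q1 had an r of 0.906 (exact p = 0.00139, adjusted p = 0.0243) and a rho of 0.929 (exact p = 0.00675, adjusted p = 0.118), with an r of 0.735 without those 2 mice. For H2-D1, r was 0.829 (exact p = 0.024, adjusted p = 0.0814) and rho 0.857 (exact p = 0.0238, adjusted p = 0.119), with an r of 0.631 without them. Other relations rested on those mice. Tap1 had an r of 0.913 (exact p = 0.00873, adjusted p = 0.0611) and 0.28 without them, and H2-T22 an r of 0.778 (exact p = 0.0438, adjusted p = 0.11) and −0.138 without them. Of 24 class I pathway genes, 21 had a positive r with Nlrc5, 2 passed by r after adjustment and 0 by rho, while 8 had an unadjusted p under 0.05 by r. These relations were chosen after the values had been seen. None was computed for genes outside the 35 relations. How often other genes follow Nlrc5 as closely across these 7 mice was therefore not tested.

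Immunoproteasome genes encode the catalytic subunits that interferon-γ substitutes into the proteasome and that favor class I peptides. Psmb8 had 28.1, 46.9, 21.8 and 54.8 CPM in TP1 to TP4, and 13.1 CPM in GEM8 to 69.7 CPM in GEM2 (median 42.9 CPM) in GEM-BCC. Psmb9 had 12.2, 21.7, 11.4 and 25.6 CPM in TP1 to TP4, and 3.58 CPM in GEM8 to 23.8 CPM in GEM6 (median 18.3 CPM) in GEM-BCC. For both genes the models overlapped and TP2 and TP4 were the higher Tp-BCC tumors. The log2 fold changes were −0.06 (SE 0.42, adjusted p = 0.936) for Psmb8 and 0.30 (SE 0.47, adjusted p = 0.682) for Psmb9. Psmb10, the remaining inducible subunit, and Psme1 and Psme2, the PA28 activator, had log2 fold changes of −0.46 to 0.22 and did not pass.

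Within a tumor, the ratio of an inducible subunit to the constitutive subunit it replaces does not depend on scaling. The log2 ratio of Psmb8 to Psmb5 was −1.29 ± 0.77 (SD, n = 9) in GEM-BCC and −1.32 ± 0.24 (SD, n = 4) in Tp-BCC tumors, a difference of −0.03 (exact 2-sided permutation p = 0.938, adjusted p = 0.938 over 6 ratios). For Psmb9 to Psmb6 it was −3.63 ± 0.98 and −3.41 ± 0.22 (exact permutation p = 0.705, adjusted p = 0.938). For Psmb10 to Psmb7 it was −2.98 ± 0.53 and −2.92 ± 0.64 (exact permutation p = 0.845, adjusted p = 0.938). In each of these ratios TP2 and TP4 lay above TP1 and TP3. For Psmb10 to Psmb7 they had −2.26 and −2.47, against −3.44 and −3.49. The part of the library difference in these ratios was not tested. The smallest p that the splits of 13 tumors into 9 and 4 allow is 0.0014. GEM1 and GEM8 had the lowest ratios of Psmb8 to Psmb5, −2.30 and −2.40, and of Psmb9 to Psmb6, −4.91 and −5.22, below every Tp-BCC tumor.

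**Figure D5:**
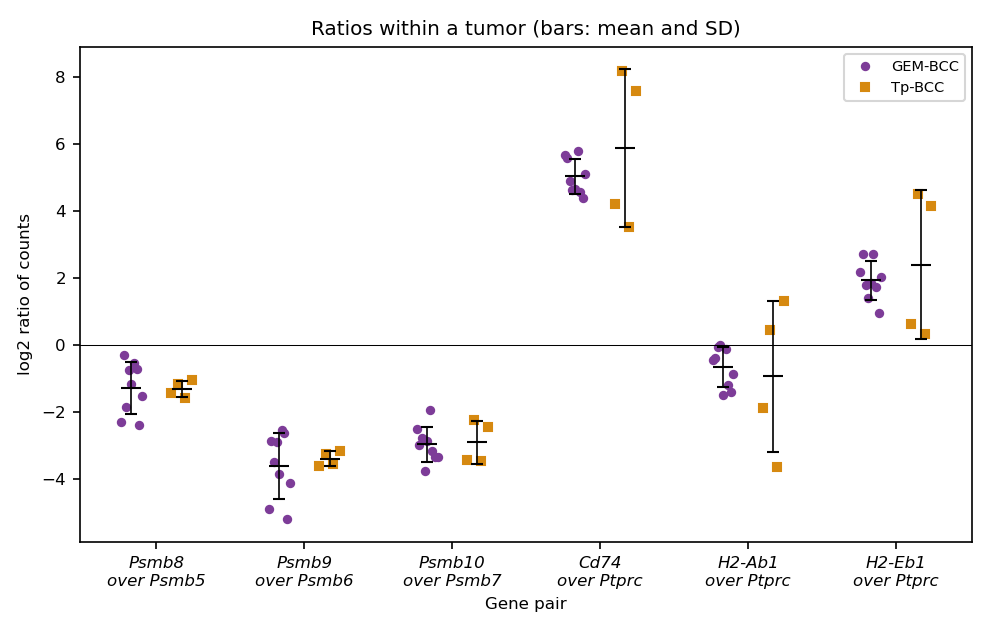
Log2 ratio of counts within each tumor (vertical axis) for 6 gene pairs, circles for the 9 GEM-BCC and squares for the 4 Tp-BCC tumors, with black bars for the mean and SD. The first 3 pairs overlap between models. In all 6 pairs the Tp-BCC tumors split into TP2 and TP4 above and TP1 and TP3 below, most widely in the 3 pairs over Ptprc.

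Peptide transport and loading held the remaining 2 genes that passed. Tapbpl (TAPBPR), which edits peptides on class I outside the main loading complex, had 10.2, 14.3, 9.58 and 12.9 CPM in TP1 to TP4. GEM-BCC tumors had 12.2 CPM in GEM2 to 25.3 CPM in GEM6, with a median of 20.96 CPM. Apart from GEM2, which lay among the Tp-BCC tumors, every GEM-BCC tumor lay above them. Tapbpl fell by 0.81 (SE 0.23, adjusted p = 0.024), and did not pass without TP1 (adjusted p = 0.0649) or TP3 (0.059) or without both (0.0984). Calr, a chaperone of the loading complex and of glycoproteins at large, had 1766, 2084, 1447 and 2464 CPM in TP1 to TP4, against 710 CPM in GEM2 to 1773 CPM in GEM1 (median 1165 CPM). GEM1 lay above TP1 and TP3, and only TP2 and TP4 lay above every GEM-BCC tumor. Calr was higher by 0.70 on the log2 scale (SE 0.23, adjusted p = 0.0419) and did not pass without GEM2, GEM3, GEM4, GEM5, GEM7, GEM8, GEM9, TP1, TP2 or TP4, each left out alone (adjusted p = 0.0567 to 0.163), nor with counts summed per mouse (0.0772), with no filter on low counts (0.0528) or without TP2 and TP4 (0.333).

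Tap1, which with Tap2 forms the peptide pump, had 83.5, 162, 65.5 and 157 CPM in TP1 to TP4. Its GEM-BCC levels were 54.8 CPM in GEM8 to 161 CPM in GEM4, with a median of 86.0 CPM. TP2 lay just above the GEM-BCC range, TP4 near its top, and TP1 and TP3 near its middle and bottom (log2 fold change 0.19, SE 0.33, adjusted p = 0.718). Tap2 (log2 fold change 0.62, adjusted p = 0.0758) and Tapbp, tapasin (−0.43, adjusted p = 0.266), likewise had TP2 and TP4 above TP1 and TP3. Erap1, which trims peptides in the endoplasmic reticulum, had the opposite order, with 14.1 and 17.7 CPM in TP1 and TP3 and 2.83 and 2.00 CPM in TP2 and TP4, against 10.6 to 51.6 CPM in GEM-BCC. The chaperones Canx and Pdia3 shared it, with 348 and 345 CPM of Canx in TP1 and TP3 and 113 and 73.0 CPM in TP2 and TP4. The transcripts of Erap1, Canx and Pdia3 have a GC content of 45.6%, 42.2% and 46.9%, and those of Tap1, Tap2 and Tapbp of 57.3%, 58.0% and 64.5%. Some other genes lined up with GC content in this way and some did not. The mean log2 CPM of TP2 and TP4 was set against that of TP1 and TP3. The difference was 2.24 for H2-Q7 (57.6% GC), 1.17 for Cd74 (56.6%) and −0.95 for Cd1d1 (47.4%), which lined up. B2m (41.2%) differed by 0.07, H2-Q1 (47.9%) by 1.05 and H2-M5 (53.1%) by −1.87, which did not. H2-M5 had only 10, 3, 12 and 1 counts in TP1 to TP4. In the fit that removes the GC trend Erap1 (log2 fold change −1.29, adjusted p = 0.0137), Canx (−0.73, 0.00919), Tapbp (−0.80, 0.00425) and Rfxap (−0.90, 0.00933) passed as lower. With DESeq2, Erap1 (−1.43, adjusted p = 0.0194), Canx (−0.995, 0.0269) and Rfxap (−0.66, 0.0259) passed as lower too.

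None of the 5 class II genes passed with edgeR, at an unadjusted p under 0.05 or with DESeq2. Cd74, the invariant chain that guides class II to endosomes, had 57.9, 103, 64.1 and 184 CPM in TP1 to TP4, and 18.4 CPM in GEM4 to 278 CPM in GEM6 (median 62.5 CPM) in GEM-BCC. The models overlapped, and GEM5, GEM6 and TP4 were the high tumors (log2 fold change 0.16, SE 0.55, adjusted p = 0.867). H2-Eb1, the E β chain, had 4.83, 7.97, 7.003 and 16.8 CPM in TP1 to TP4, and 1.94 CPM in GEM4 to 33.1 CPM in GEM6 (median 6.34 CPM). It overlapped in the same way, with GEM5, GEM6 and TP4 high again (−0.30, SE 0.62, adjusted p = 0.763). H2-Ab1, the A β chain, had 0.824, 0.450, 0.419 and 2.36 CPM in TP1 to TP4, and 0.702 CPM in GEM8 to 4.61 CPM in GEM6 (median 1.24 CPM). TP2 and TP3 lay below every GEM-BCC tumor at 7 counts each, and TP1 and TP4 lay among them (−0.66, SE 0.61, adjusted p = 0.47). Per kb, the GEM-BCC medians were 44.3 CPM for Cd74, 3.80 CPM for H2-Eb1 and 1.02 CPM for H2-Ab1, and the Tp-BCC medians 59.2, 4.49 and 0.526 CPM. H2-Aa, the A α chain that pairs with H2-Ab1, had 0 counts in 8 GEM-BCC tumors and 2 in GEM6, and was not tested. As for H2-K1, whether reads of the A alleles present align to the reference transcripts was not tested, so the level of H2-Ab1 is uncertain. H2-DMa and H2-DMb1, the peptide exchanger of endosomes, had log2 fold changes of 0.60 (adjusted p = 0.18) and 0.83 (adjusted p = 0.352).

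Ciita, the class II transactivator, had 1.295, 2.44, 1.68 and 3.93 CPM in TP1 to TP4, and 0.316 CPM in GEM3 to 2.87 CPM in GEM6 (median 1.49 CPM) in GEM-BCC. TP4 lay above every GEM-BCC tumor and the rest lay among them (log2 fold change 0.76, SE 0.56, adjusted p = 0.348). Rfx5, Rfxap and Rfxank, the subunits of the RFX factor that binds the X box, had log2 fold changes of −0.65 to 0.18 and did not pass, with Rfxap at an adjusted p of 0.0687. Cd1d1, which presents lipids to NKT cells, and Ifi30 (GILT), which reduces disulfide bonds of antigens in lysosomes, did not pass either, with −0.53 (adjusted p = 0.225) and 0.30 (adjusted p = 0.295).

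Ptprc, which encodes the leukocyte antigen CD45, is 1 of 5 leukocyte markers against which the class II genes were set. The log2 ratio of Cd74 to Ptprc was 5.03 ± 0.53 (SD, n = 9) in GEM-BCC and 5.87 ± 2.36 (SD, n = 4) in Tp-BCC tumors, where it was 4.202, 8.18, 3.502 and 7.58 in TP1 to TP4 (exact permutation p = 0.308, adjusted p = 0.938). H2-Eb1 to Ptprc was 1.92 ± 0.57 and 2.39 ± 2.23 (exact permutation p = 0.554, adjusted p = 0.938). H2-Ab1 to Ptprc was −0.67 ± 0.59 and −0.95 ± 2.26 (exact permutation p = 0.726, adjusted p = 0.938). In each ratio TP2 and TP4 were high and TP1 and TP3 low. Ptprc had 53, 5, 94 and 13 counts in TP1 to TP4, and its transcript has a GC content of 42.7%, against 56.6% for Cd74. Cd53, with a GC content of 39.95%, had 76, 14, 79 and 66 counts in TP1 to TP4. After scaling only TP2 was low, with 0.900 CPM against a Tp-BCC median of 4.59 CPM and a highest value of 4.73 CPM. Cd53 thus shared the order of Ptprc only in part. The markers Cd52, Laptm5 and Coro1a, at 51.0%, 54.7% and 58.6% GC, did not share it. Laptm5, for example, had 302, 381, 294 and 814 counts in TP1 to TP4, and Coro1a 104, 134, 106 and 240 counts. With the summed counts of all 5 markers in place of Ptprc, an alternative added after the data were seen, the log2 ratio of Cd74 was 1.21 ± 0.50 (SD, n = 9) in GEM-BCC and 1.01 ± 0.33 (SD, n = 4) in Tp-BCC tumors (difference −0.19, exact permutation p = 0.492, adjusted p = 0.938), and the split of the Tp-BCC tumors was smaller, at 0.74, 1.46, 0.81 and 1.04 in TP1 to TP4. For H2-Eb1 the ratio was −1.90 ± 0.69 and −2.46 ± 0.26 (exact permutation p = 0.157, adjusted p = 0.47). For H2-Ab1 it was lower in Tp-BCC, at −4.49 ± 0.55 and −5.80 ± 0.60 (difference −1.31, exact permutation p = 0.0042, adjusted p = 0.0252), although TP1 and TP4, at −5.34 and −5.22, lay above GEM1 at −5.57. The direction of the Cd74 and H2-Eb1 differences and the call on H2-Ab1 thus depend on the marker chosen. Laptm5 had the most counts of the 5 markers in every tumor, so it weighs most in the sum. Its log2 fold change was 0.97 (adjusted p = 0.107 with edgeR), and those of the other markers were −0.06 to 0.32. H2-Ab1 had 7 counts in each of TP2 and TP3. The part of the GC trend in these ratios was not tested, and the ratios to the summed markers were not computed per mouse. Across the 7 GEM-BCC mice, Ptprc and H2-Eb1 had an r of 0.943 (exact p = 0.00556, adjusted p = 0.0611) and a rho of 0.857 (exact p = 0.0238, adjusted p = 0.119), with an r of 0.826 without the 2 mice farthest in Ptprc. Ptprc and Nlrc5 had an r of 0.03 (exact p = 0.959, adjusted p = 0.977) and a rho of 0.214 (exact p = 0.662, adjusted p = 0.724), with an r of −0.777 without those 2 mice.

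Of 120 other genes of the pathway, 90 could be tested and 9 passed (10%, against 19.4% of all tested genes), 3 higher and 6 lower, with a median log2 fold change of −0.06. Among other class I heavy chains and class I-like genes, H2-Q9 had 0 counts in 3 Tp-BCC tumors and 3.19 in TP3, against 0 to 709 counts in GEM-BCC. It is 1 of the 6 genes counted as lower, but it entered the test only through GEM-BCC tumors, and its reads are hard to divide from those of the near-identical H2-Q genes. Mill2, a class I-like gene, was higher (1.98, adjusted p = 0.00477). Pomp, which helps assemble new proteasomes, was higher (0.81, adjusted p = 0.0191). Bcap31, an export receptor of the endoplasmic reticulum, fell by 0.71 (adjusted p = 0.0144), and Hspa1a, a heat shock chaperone, fell by 4.06 (adjusted p = 1.39e-05). Its near-identical paralog Hspa1b, with 3669 to 8805 counts against 34.8 to 3293 for Hspa1a, had a log2 fold change of 0.49 (adjusted p = 0.159). The rows hold fractional counts, so their reads were divided and the value of Hspa1a alone is uncertain. The proteases Ctsh and Ctsk fell by 1.74 (adjusted p = 0.00621) and 1.44 (adjusted p = 0.0109). Irf2, which can repress or activate interferon targets, was higher (0.65, adjusted p = 0.0258), and Irf9, a subunit of the type I interferon factor ISGF3, fell by 1.16 (adjusted p = 0.00278). None of 6 tested co-stimulation genes passed, with 1 at an unadjusted p under 0.05.

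The interferon response was read from 54 genes, of which 45 could be tested and 6 passed (13.3%, against 19.4% of all), 5 higher and 1 lower. The median log2 fold change was −0.03. Oasl1, of the oligoadenylate synthetase family, was higher by 2.63 (adjusted p = 0.000406), with 20 to 37 counts in Tp-BCC and 4 to 15 in GEM-BCC tumors. It is 1 of the 5 counted as higher, but it met the count minimum only with the Tp-BCC tumors, the group in which it is high. Its call therefore supports nothing. Samhd1, a nucleotide hydrolase that restricts viruses (1.06, adjusted p = 0.000633), Bst2, which tethers virus particles (1.20, adjusted p = 0.00969), Rtp4 (1.01, adjusted p = 0.049) and Usp18, which removes ISG15 (1.53, adjusted p = 0.0327), were higher, and Dtx3l, a ubiquitin ligase, fell by 1.53 (adjusted p = 0.0141). The number of interferon genes that passed was 11 with DESeq2, against 26% of all tested genes. It was 11 with the GC trend removed, against 28.4% of all genes, and 3 without TP2, against 10.8%. Irf1, which carries the interferon-γ signal to class I genes, had a log2 fold change of −0.22 (adjusted p = 0.536).

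Markers of cells that present antigen or respond to it were measured in the same tumors, and the counts that passed stand beside 19.4% of all tested genes. Counts at an unadjusted p under 0.05 stand beside 4964 of the 14390 tested genes. The 5 leukocyte markers summed to 10.02 to 68.8 CPM in the GEM-BCC model and 34.6 to 89.2 CPM in the Tp-BCC model, and none of the 5 passed, with 1 at an unadjusted p under 0.05. The 12 macrophage markers summed to 95.6 to 318 CPM and 234 to 344 CPM, and 1 of 12 passed, Cd68 (1.31, adjusted p = 0.0292). Of 10 dendritic cell markers 6 could be tested and 2 passed, Zbtb46 (2.22, adjusted p = 0.0013) and Batf3 (1.63, adjusted p = 0.0434). The 7 T cell markers summed to 0.461 to 4.77 CPM and 1.47 to 2.57 CPM, and the 6 B cell markers to 0.264 to 1.31 CPM and 1.00 to 1.26 CPM, too low to test all but 1 gene of each. The 6 endothelial markers summed to 75.6 to 212 CPM and 230 to 284 CPM, and 2 passed, Cdh5 (1.29, adjusted p = 0.00116) and Emcn (1.11, adjusted p = 0.0443). Adipocyte markers summed to 0.400 to 3.26 CPM and 10.4 to 82.0 CPM, and all 3 tested passed as higher, of which Cidec had 10 counts only in Tp-BCC tumors. Of 6 fibroblast markers 2 passed, Col1a1, which fell by 1.12 (adjusted p = 0.0497), and Fbln1, which was higher (1.88, adjusted p = 0.00269). Of 5 neutrophil markers 3 could be tested and 2 passed, S100a8 and S100a9. They had at most 2 and 3 counts in a Tp-BCC tumor, against 3 to 98 and 3 to 106 counts in the GEM-BCC model, through which alone they entered the test. None of the 4 mast cell, 2 skeletal muscle and 1 Langerhans cell markers tested passed, with 2 in all at an unadjusted p under 0.05, and no NK cell marker could be tested. The muscle markers Acta1 and Ckm were not tested. Acta1 had 3, 84, 4 and 1113 counts in TP1 to TP4 and at most 4 in a GEM-BCC tumor. Ckm had 0, 22, 1 and 307 counts in TP1 to TP4 and at most 8 in a GEM-BCC tumor. No marker of these lists was at 0 in all tumors. The part of these cells in the levels of class I and class II genes was not tested.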

How the data were processed

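The members and gene lists were chosen with earlier results of these data known, and 2 genes of the lists are not reported here. Poly(A) RNA of 13 tumors (9 GEM-BCC from 7 mice, 4 Tp-BCC from 4 mice) was measured. According to the authors, reads were aligned with Bowtie2 2.3.4.3 to transcripts of GRCm39 and quantified with RSEM 1.3.1, and RSEM's expected counts, not normalized, are the values deposited. RSEM divides a read that fits several genes between them, which affects near-identical H2 genes. How blank values arose is not stated, and blank genes (1932 in Tp-BCC alone, 65 in GEM-BCC alone, 2416 in all tumors) were not tested.

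Counts were rounded. The 14390 genes with a value in every tumor and 10 or more counts in 4 or more tumors were compared with edgeR 4.0.16 in R 4.3.3 (TMM, robust quasi-likelihood F test, 2-sided, no covariate), with Benjamini-Hochberg adjustment. SE were derived as the log2 fold change over the root of F, and log2 CPM took a prior count of 2. Ratios used a pseudocount of 0.5 and exact 2-sided permutation tests over all splits of 13 tumors into 9 and 4 in Python. At 3 counts per library or fewer a bound replaced the fold, for counting error only.

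Genes named in full were those that passed and 11 defining genes of each role, and of each related list the passing genes, at most 5. Alternatives were DESeq2 1.42.0, its size factors, other filters, sums per mouse or over near-identical genes, each tumor left out, a replicate block, removal of the GC trend (lowess span 0.3, GC of GENCODE vM21 transcripts, known for 97.95% of tested genes) and other pseudocounts. GENCODE vM21 and RefSeq GRCm38.p6 gave lengths, GC content, shared words and promoters only. The fit was tested on simulated data.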

Additional observations from a re-analysis of the deposited data

Results flagged for a closer look

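In 73 groups of values checked (each gene in each model, H2-K1 in GEM-BCC left out), 4 values stood apart from the rest of their group, where chance gives about 1 in 20 groups. GEM2 had the lowest H2-M5 in GEM-BCC (log2 CPM −2.18, 4 counts). GEM3 had the highest Psme2 (7.47) and the lowest Rfx5 (3.69) in GEM-BCC. TP4 had the lowest Rfx5 in Tp-BCC (4.69).

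Some class I and II genes hold no values in Tp-BCC and so entered no comparison, yet were counted in GEM-BCC. H2-Ea, the E α chain that pairs with H2-Eb1, reached 1708 counts in GEM6, the tumor with the most H2-Eb1. H2-T9 reached 948.7 and H2-T10, which shares 11.8% of its 100-base words with H2-T22, 323.4 counts, both in GEM3. H2-Q8 reached 47.5 counts in GEM9, and H2-L reached 34.8 and H2-Q10 11 counts, both in GEM6. Cd1d2, a paralog of Cd1d1, reached 4 counts in GEM1. How the blanks arose is not given in the sources used here, so nothing can be said of these genes in Tp-BCC.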

How the results depend on the processing

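Over 822 values of single genes under the alternatives, 48 changed direction, 45 no longer passed and 23 passed where they had not, and 20 of the 37 genes kept their direction in all of them. The number of genes that passed was 6, and became 3 with an absolute log2 fold change above 2 as well, 10 with DESeq2, 10 with the GC trend removed, 3 without TP2 and TP4, and 2 to 6 with 1 tumor left out. H2-K1 could not be tested without a Tp-BCC tumor, since fewer than 4 tumors then had 10 counts. Of the other pathway genes 9 passed, and 2 with the fold threshold, 21 with the GC trend removed and 31 without TP1 and TP3. Over all tested genes, 5.57% passed with the fold threshold, 26% with DESeq2 and 28.4% with the GC trend removed. The share was 42.9% without TP1 and TP3, 10.4% without TP2 and TP4, and 10.8% to 21.1% with 1 tumor left out. Of the interferon genes 6 passed, and 1 with the fold threshold, 11 with DESeq2, 11 with the GC trend removed, 16 without TP1 and TP3, and 3 to 8 with 1 tumor left out. The gene past the fold threshold was Oasl1, which met the count minimum only with the Tp-BCC tumors. Removing the GC trend turned the log2 fold change of H2-Q1 (0.26), H2-T24 (0.16), Psmb9 (−0.0050), Psmb10 (−0.11), Tap1 (−0.19), Pdia3 (0.13), Cd74 (−0.22) and Rfxank (−0.10). Without TP1 and TP3 it turned for H2-D1 (0.083), H2-Q1 (0.13), H2-T24 (0.24), Psmb8 (0.37), Psme2 (0.13), Tapbp (0.068) and H2-Eb1 (0.14). Without TP2 and TP4 it turned for H2-M5 (0.52), Psmb9 (−0.30), Psmb10 (−0.37), Tap1 (−0.47), Tap2 (−0.071), Pdia3 (0.30), Cd74 (−0.60), Rfxank (−0.28) and Ifi30 (−0.029). None of these turned values belongs to a gene that passed. With 1 tumor left out, the log2 fold change crossed 0 for H2-T24 (−0.40 to 0.14), H2-M5 (−0.63 to 0.12), Psmb8 (−0.35 to 0.14), Psmb9 (−0.0003 to 0.46), Psmb10 (−0.081 to 0.40), Psme2 (−0.26 to 0.037), Tap1 (−0.053 to 0.39), Pdia3 (−0.37 to 0.035), Nlrc5 (−0.44 to 0.24), Cd74 (−0.36 to 0.58), H2-Eb1 (−0.83 to 0.10) and Rfxank (−0.069 to 0.31). So did the difference in log2 ratio for Psmb8 over Psmb5 (−0.17 to 0.092), Psmb10 over Psmb7 (−0.15 to 0.26), H2-Ab1 over Ptprc (−1.03 to 0.63) and H2-Eb1 over Ptprc (−0.23 to 1.16), none of which passed with a tumor left out. With all 5 leukocyte markers summed in place of Ptprc, the difference turned for Cd74 (−0.19) and H2-Eb1 (−0.56), and that of H2-Ab1 passed (−1.31, adjusted p = 0.0252 by exact permutation tests). The cause of these changes was not tested.

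The replicate numbers 1 to 4 that both models share are names of tumors from different mice and batches. Tumors with the same number did not deviate together (correlations of −0.381, −0.122, −0.101 and −0.179). With the replicate block, 1 of the 37 genes passed (H2-K1), 2 of the other pathway genes, 0 of the interferon genes and 178 of all genes (1.24%), and the log2 fold change turned for H2-D1 (0.0040), Pdia3 (0.021), Nlrc5 (0.69), H2-Eb1 (0.59) and Rfxank (−0.059).

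Depth limits H2-K1, H2-DMb1 and Ciita in GEM-BCC, H2-Ab1 in Tp-BCC, and H2-Q7 and H2-M5 in both, where single tumors had 10 counts or fewer.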
